A study of Mus musculus with 6 samples.

Results

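The 59 genes described here copy the DNA and divide the cell: 28 act in or before DNA replication, from Mcm2 to Clspn, and 31 act in mitosis, from Mki67 to Racgap1. They were picked by gene symbol from the 54532 genes of the count table, all 59 were found, and all 59 passed the filter on low counts that left 13156 genes for testing. RNA came from RAW 264.7 cells, an established mouse macrophage line that arose in a tumour induced by a leukaemia virus, kept for 3 days on alloy scaffolds whose names carry the prefix CaP, for calcium phosphate. CaP Zn is the zinc scaffold, CaP Zn0.8Mn adds manganese to it, and CaP Zn0.8Mn0.1Li adds both manganese and lithium. Each alloy had 2 libraries, every group shared the cell line, the CaP coating, zinc and the culture time, and cells grown without an alloy were not analysed here. Nothing in the labels says that both libraries of an alloy came from separate cultures, so a p-value here rests on library-to-library spread that may be technical. All 10 macrophage markers on a list of defining genes passed the filter, while 0 of 7 fibroblast markers did and all 4 epithelial markers were at 0 counts in every library. Of 7 osteoclast markers, 6 passed, and all 7 summed to 188 to 334 CPM. Of 5 osteoblast markers, 1 passed, and all 5 summed to 7.47 to 17.4 CPM. Of 4 dendritic cell markers, 2 passed. All 4 summed to 20.4 CPM in CaP Zn0.8Mn replicate 1 and 2.96 to 8.63 in the other libraries. The 10 macrophage markers summed to 11308 and 14509 CPM for CaP Zn, 10905 and 17011 for CaP Zn0.8Mn, and 15540 and 16155 for CaP Zn0.8Mn0.1Li, and the part of these marker differences in the results below was not tested.

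Cells commit to division when G1 cyclin-dependent kinases inactivate the Rb protein and free E2F transcription factors, which switch on genes for licensing origins and copying DNA. Later, in G2, cyclin B and the kinase Cdk1 come up together with the spindle, kinetochore and cytokinesis genes. Many of these are held off by the DREAM complex and later switched on by MuvB with B-Myb and FoxM1. RAW 264.7 is a tumour line and keeps cycling in culture, unlike most resident macrophages, so both sets of genes are commonly read as signs of proliferation. In bulk RNA, fewer cycling cells and less RNA per cycling cell cannot be told apart.

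The promoters of the 2 sets differ in how often they hold E2F-like and CHR letters but less in CCAAT boxes, and 7 promoters that hold such letters are shown as examples. Other members named below, among them Nusap1, Pcna, Rrm1, Tyms, Ccne1 and Cenpe, held neither an E2F-like match nor a CHR in the window searched. Sequences are from RefSeq, build GRCm38.p6, in which 51 of the 59 members have a promoter entry (24 replication, 27 mitosis). Each line gives the 150 bases just before the annotated start, 5′ to 3′ on the gene's strand, with matches to 3 motifs in capitals: an E2F-like site (TTTCCCGC, TTTGGCGC, TTTCGCGC or TTTGCCGC), a CHR element (TTTGAA or TTCGAA) and a CCAAT box (CCAAT), each on either strand.
Mcm6 (chr1:128359706-128359855, minus strand): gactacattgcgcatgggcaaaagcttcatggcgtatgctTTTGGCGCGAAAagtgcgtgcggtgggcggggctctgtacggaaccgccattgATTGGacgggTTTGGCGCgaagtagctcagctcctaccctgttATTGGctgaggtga
Dtl (chr1:191575545-191575694, minus strand): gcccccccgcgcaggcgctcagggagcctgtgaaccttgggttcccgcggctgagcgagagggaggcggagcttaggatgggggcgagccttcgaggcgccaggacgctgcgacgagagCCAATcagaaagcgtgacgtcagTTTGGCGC
Pola1 (chrX:93632156-93632305, minus strand): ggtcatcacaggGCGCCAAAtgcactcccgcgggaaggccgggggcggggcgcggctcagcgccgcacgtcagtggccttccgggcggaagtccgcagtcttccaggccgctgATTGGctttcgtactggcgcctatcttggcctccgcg
Cdk1 (chr10:69352913-69353062, minus strand): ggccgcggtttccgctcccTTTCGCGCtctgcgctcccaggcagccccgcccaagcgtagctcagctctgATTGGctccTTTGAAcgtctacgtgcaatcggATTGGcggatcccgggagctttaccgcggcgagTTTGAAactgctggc
Cdc20 (chr4:118437344-118437493, minus strand): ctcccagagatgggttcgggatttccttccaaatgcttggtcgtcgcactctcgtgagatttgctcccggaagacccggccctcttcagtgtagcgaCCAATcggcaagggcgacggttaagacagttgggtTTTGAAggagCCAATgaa
Kif11 (chr19:37376232-37376381, plus strand): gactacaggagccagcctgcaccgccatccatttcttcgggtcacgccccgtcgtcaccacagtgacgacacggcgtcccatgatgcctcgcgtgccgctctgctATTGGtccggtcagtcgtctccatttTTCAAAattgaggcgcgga
Top2a (chr11:99024190-99024339, minus strand): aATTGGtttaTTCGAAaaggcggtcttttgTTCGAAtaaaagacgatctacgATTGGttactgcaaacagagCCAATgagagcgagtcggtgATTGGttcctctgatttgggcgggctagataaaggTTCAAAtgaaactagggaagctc
Mcm6, a subunit of the helicase that opens origins, has E2F-like matches that begin 110, 106 and 47 bases before the start, the upstream pair overlapping. Dtl, which hands Cdt1 to a ubiquitin ligase in S phase, has its match 8 bases before the start. In Cdc20 and Kif11 the CHR lies 18 and 19 bases before the start, with a CCAAT box 53 and 45 bases before the start. Cdk1 carries all 3 motifs. In the full windows, 250 bases before to 50 after the start, 12 of 24 replication promoters (50%) held an E2F-like match, against 1 of 27 mitosis promoters (3.70%), which was that of Cdk1, and 704 of 27025 promoters of all genes (2.61%). A CHR was found in 22 of 27 mitosis promoters (81.5%) and 5 of 24 replication promoters (20.8%), beside 21.7% of all promoters. A CCAAT box alone separated the sets little, with 17 of 24 replication promoters (70.8%) and 22 of 27 mitosis promoters (81.5%), beside 41.1% of all. CHR and CCAAT stood together in 20 of 27 mitosis promoters (74.1%), in 4 of 24 replication promoters (16.7%) and in 9.65% of all. These matches describe letters in a window, and a match that overlapped one of another motif was counted for both.

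Both sets were well expressed. Per length, on the FPKM scale and as the median of 5 libraries (CaP Zn0.8Mn replicate 1 left out, for reasons given below), replication genes had a median level of 12.4 FPKM and ran from 2.46 for Fen1, the flap endonuclease, to 82.1 for Pcna, the sliding clamp of DNA polymerases. Mitosis genes had a median level of 20.2 FPKM. Their lowest level was 3.71 FPKM for Ndc80, a kinetochore subunit that grips microtubules. Their highest was 63.6 FPKM for Ccnb2, which encodes cyclin B2, followed by 60.7 for Cdc20, the activator of the anaphase-promoting complex, and 52.0 for Bub1b, a spindle checkpoint protein. Cdt1 (38.2 FPKM), Mcm5 (34.7) and the ribonucleotide reductase subunit Rrm2 (34.2) followed Pcna among the replication genes. Replication counts in single libraries ran from 36 for Fen1 to 4566, and mitosis counts from 369 for Ndc80 to 15946. Counting error is small for all members but Fen1. Fen1 also overlaps a gene with far more counts on the opposite strand, described below, so its level is uncertain.

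No member was called in any of the 3 alloy comparisons. With edgeR's quasi-likelihood test over all 6 libraries and Benjamini-Hochberg adjustment over all genes, the count of members with an adjusted p under 0.05 was 0 of 59 each time, and so was the count over all 13156 genes (0% in each comparison). Unadjusted p-values under 0.05 were also reached by 0 members, against 207 genes (1.57%) for CaP Zn0.8Mn over CaP Zn, 29 (0.22%) for CaP Zn0.8Mn0.1Li over CaP Zn and 316 (2.4%) for CaP Zn0.8Mn0.1Li over CaP Zn0.8Mn. DESeq2 called 1, 0 and 3 genes in these comparisons (0.0076%, 0% and 0.0228%) and limma-voom called 0, 0 and 0, with 0 members in each. The test's reach was limited: the SE of a member's log2 fold change had a median of 0.26 and reached 0.65, so a difference of that size could not be told from the spread between libraries.

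CaP Zn0.8Mn replicate 1 stood apart before any alloy was compared. It had 7.88% mitochondrial counts, against 1.82% to 2.15% in the other 5 libraries, and its log2 CPM correlated with theirs at r = 0.892 to 0.913 across genes, where the other 5 had at least 0.985 among themselves. Totals of the 6 libraries lay between 14944070 and 17709290 counts. The fold changes of the alloy comparisons are given with and without this library.

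**Figure D1:**
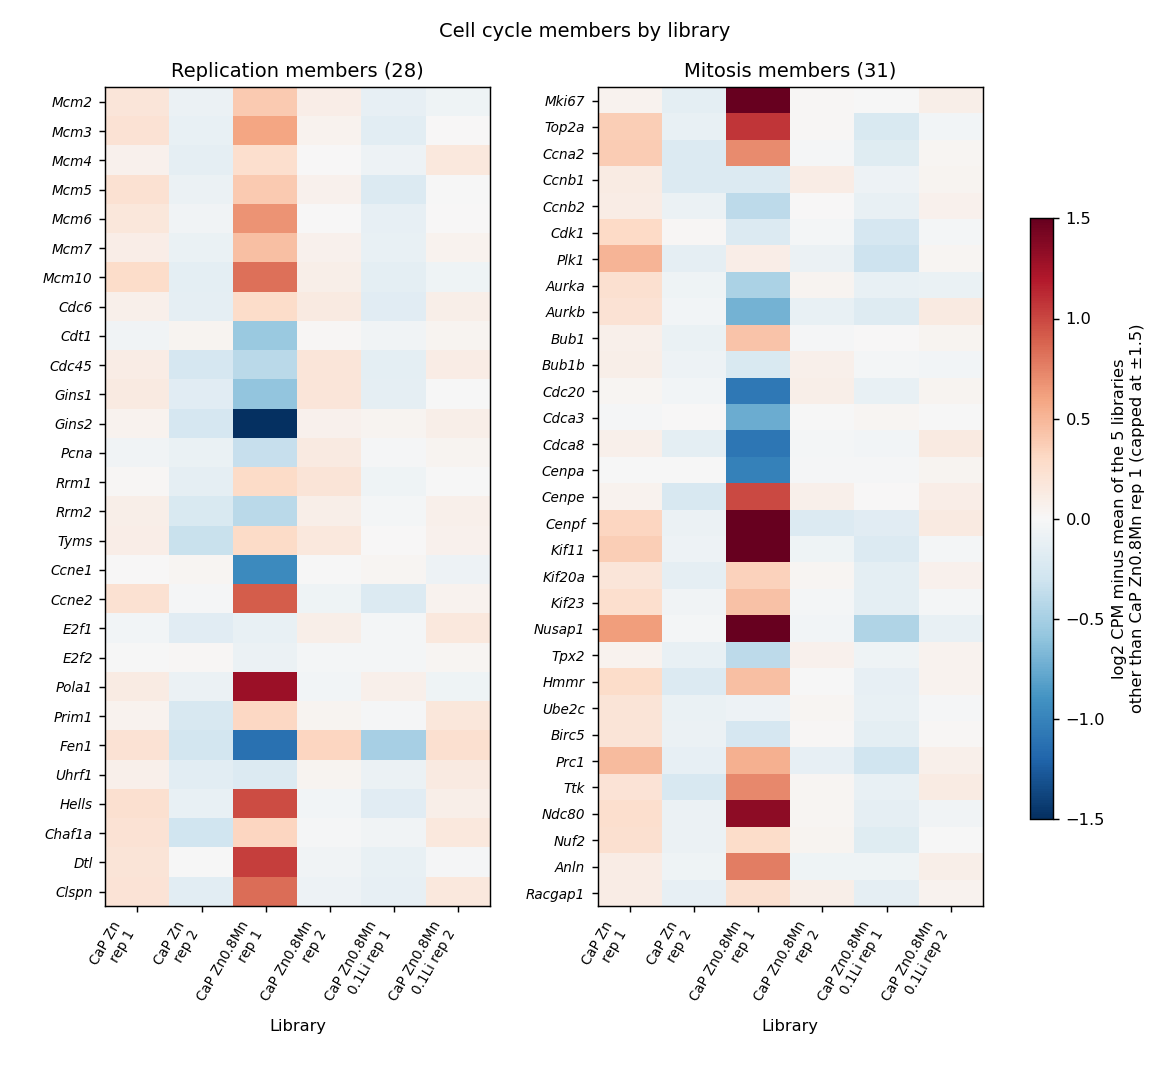
Heat maps of 28 replication genes (left) and 31 mitosis genes (right); columns are the 6 libraries, and colour is log2 CPM minus the mean of the 5 libraries other than CaP Zn0.8Mn rep 1, capped at 1.5 either way. The CaP Zn0.8Mn rep 1 column holds the deepest colours, with both red and blue members, while CaP Zn rep 1 is mostly pale red.

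Values by library are CPM, counts scaled to library size with TMM factors, with replicate 1 before replicate 2. Origin licensing loads the Mcm2-7 helicase on DNA with the help of Cdc6 and Cdt1. Mcm2 read 111 and 92.1 CPM for CaP Zn, 129 and 105 for CaP Zn0.8Mn, and 90.0 and 94.0 for CaP Zn0.8Mn0.1Li. Mcm5 read 164 and 131 CPM for CaP Zn, 183 and 146 for CaP Zn0.8Mn, and 122 and 139.7 for CaP Zn0.8Mn0.1Li. Mcm6, whose promoter is shown above, read 135 and 116 CPM for CaP Zn, 193 and 121 for CaP Zn0.8Mn, and 111 and 121 for CaP Zn0.8Mn0.1Li. In these 3 helicase genes the highest value was CaP Zn0.8Mn replicate 1, the next was CaP Zn replicate 1, and the CaP Zn libraries spanned most of the range of the rest. The loader Cdc6 was at 25.1 and 21.7 CPM (CaP Zn), 28.7 and 26.0 CPM (CaP Zn0.8Mn), and 21.1 and 25.4 CPM (CaP Zn0.8Mn0.1Li), and both CaP Zn0.8Mn libraries were above both CaP Zn libraries. Cdt1, the other loader, went the opposite way in the library that stands apart, with 114 and 122 CPM for CaP Zn, 80.6 and 120.3 for CaP Zn0.8Mn, and 115 and 122 for CaP Zn0.8Mn0.1Li, and its other 5 values lay close together. Of the 8 licensing genes, 7 had a fitted log2 fold change above 0 for CaP Zn0.8Mn over CaP Zn (median 0.21). Without CaP Zn0.8Mn replicate 1 that was 5 of 8, with a median of 0.03.

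Helicase activation needs Cdc45, the GINS subunits and Mcm10, which turn a loaded helicase into a moving fork. Mcm10 read 29.4 and 21.9 CPM for CaP Zn, 43.2 and 25.8 for CaP Zn0.8Mn, and 21.9 and 23.3 for CaP Zn0.8Mn0.1Li. Gins1 read 30.1 and 24.3 CPM for CaP Zn, 18.2 and 31.0 for CaP Zn0.8Mn, and 24.99 and 27.2 for CaP Zn0.8Mn0.1Li. Cdc45 read 38.9 and 30.4 CPM for CaP Zn, 27.4 and 40.9 for CaP Zn0.8Mn, and 32.6 and 38.9 for CaP Zn0.8Mn0.1Li. Mcm10 was highest in CaP Zn0.8Mn replicate 1, while Gins1 and Cdc45 were lowest there, so genes of this step parted in that library. Gins2 read 31.99 and 26.0 CPM for CaP Zn, 11.0 and 32.3 for CaP Zn0.8Mn, and 31.8 and 33.0 for CaP Zn0.8Mn0.1Li, with a log2 difference of -1.49 between that library and the mean of the other 5, the widest gap in this group.

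DNA synthesis uses the polymerase alpha-primase subunits Pola1 and Prim1, the clamp Pcna and the flap endonuclease Fen1. Pcna read 194 and 188 CPM for CaP Zn, 158 and 221 for CaP Zn0.8Mn, and 198 and 206 for CaP Zn0.8Mn0.1Li. Both of its CaP Zn0.8Mn0.1Li libraries were above both CaP Zn libraries, but the CaP Zn0.8Mn pair held both the lowest and the highest value of the 6. Pola1, which starts each strand, read 35.9 and 31.0 CPM for CaP Zn, 80.5 and 32.1 for CaP Zn0.8Mn, and 34.8 and 31.6 for CaP Zn0.8Mn0.1Li, and 5 of its 6 libraries lay within a narrow band. Prim1 read 26.0 and 21.1 CPM for CaP Zn, 31.1 and 25.7 for CaP Zn0.8Mn, and 24.7 and 28.2 for CaP Zn0.8Mn0.1Li, with the groups overlapping. Nucleotide supply comes from ribonucleotide reductase (Rrm1, Rrm2) and thymidylate synthase (Tyms). Rrm1 read 246 and 221 CPM for CaP Zn, 296 and 277 for CaP Zn0.8Mn, and 232 and 242 for CaP Zn0.8Mn0.1Li. Tyms read 23.5 and 17.3 CPM for CaP Zn, 26.8 and 24.5 for CaP Zn0.8Mn, and 22.0 and 23.0 for CaP Zn0.8Mn0.1Li. For both genes the CaP Zn0.8Mn pair was above all 4 libraries of the other alloys. Rrm2 read 96.7 and 77.3 CPM for CaP Zn, 68.7 and 96.0 for CaP Zn0.8Mn, and 89.1 and 95.6 for CaP Zn0.8Mn0.1Li, and its lowest library of the 6 was CaP Zn0.8Mn replicate 1.

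Among the G1/S regulators, cyclin E and the E2F factors that start S phase, Ccne1 read 37.9 and 38.4 CPM for CaP Zn, 19.4 and 37.5 for CaP Zn0.8Mn, and 38.5 and 35.8 for CaP Zn0.8Mn0.1Li. Ccne2 read 15.4 and 13.0 CPM for CaP Zn, 24.7 and 12.6 for CaP Zn0.8Mn, and 11.4 and 13.6 for CaP Zn0.8Mn0.1Li. CaP Zn0.8Mn replicate 1 thus held the lowest of the 6 values for one cyclin E gene and the highest for the other. Ccne2 overlaps Ints8 on the opposite strand, which had 242% as many counts, and the part of that overlap in these values was not tested. E2f1 read 47.0 and 42.9 CPM for CaP Zn, 44.9 and 51.3 for CaP Zn0.8Mn, and 47.4 and 54.1 for CaP Zn0.8Mn0.1Li, higher in both CaP Zn0.8Mn0.1Li libraries than in both CaP Zn libraries (log2 fold change 0.17, SE 0.19). E2f2 read 56.0 and 57.1 CPM for CaP Zn, 52.9 and 55.2 for CaP Zn0.8Mn, and 55.2 and 57.4 for CaP Zn0.8Mn0.1Li, the narrowest spread of these 4 genes. Fork chromatin and checkpoint genes included Uhrf1, which brings the maintenance methyltransferase to new DNA, at 130.5 and 112 CPM (CaP Zn), 108 and 128 CPM (CaP Zn0.8Mn), and 117 and 136 CPM (CaP Zn0.8Mn0.1Li). Its groups overlapped in every comparison. Hells, a chromatin remodeller, read 59.1 and 46.6 CPM for CaP Zn, 98.9 and 48.7 for CaP Zn0.8Mn, and 44.6 and 53.4 for CaP Zn0.8Mn0.1Li. Chaf1a, the large subunit of chromatin assembly factor 1, read 49.9 and 35.0 CPM for CaP Zn, 53.9 and 42.4 for CaP Zn0.8Mn, and 41.4 and 48.0 for CaP Zn0.8Mn0.1Li. Dtl read 52.2 and 45.2 CPM for CaP Zn, 93.2 and 43.7 for CaP Zn0.8Mn, and 42.1 and 44.8 for CaP Zn0.8Mn0.1Li. Hells, Chaf1a and Dtl were each highest in CaP Zn0.8Mn replicate 1, and Dtl was slightly lower in both CaP Zn0.8Mn0.1Li libraries than in both CaP Zn libraries.

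Mitosis genes showed the same separation of 1 library. Mki67, the proliferation antigen Ki-67 that coats mitotic chromosomes, read 369 and 322 CPM for CaP Zn, 1054 and 359 for CaP Zn0.8Mn, and 355 and 378 for CaP Zn0.8Mn0.1Li. Top2a, which untangles sister chromatids, read 405 and 290.3 CPM for CaP Zn, 656 and 316 for CaP Zn0.8Mn, and 266 and 303 for CaP Zn0.8Mn0.1Li. Mki67 in CaP Zn0.8Mn replicate 1 was far above its 5 other values, which lay between 322 and 378 CPM, whereas Top2a also separated the CaP Zn replicates. The cyclins followed no common order. Ccna2 read 122 and 81.4 CPM for CaP Zn, 153 and 92.4 for CaP Zn0.8Mn, and 82.4 and 96.1 for CaP Zn0.8Mn0.1Li, and Ccnb1 read 140.2 and 112 CPM for CaP Zn, 112 and 139 for CaP Zn0.8Mn, and 122 and 133 for CaP Zn0.8Mn0.1Li. Cyclin A2 was highest in CaP Zn0.8Mn replicate 1 and cyclin B1 in CaP Zn replicate 1, with all groups overlapping for both. Their kinase Cdk1 read 90.8 and 75.03 CPM for CaP Zn, 64.3 and 72.7 for CaP Zn0.8Mn, and 62.2 and 72.4 for CaP Zn0.8Mn0.1Li. All 4 libraries with manganese were below both CaP Zn libraries, the closest by under 3 CPM.

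Destruction of the cyclins is started by Cdc20 with the ubiquitin-conjugating enzyme Ube2c. Cdc20 read 115 and 109 CPM for CaP Zn, 53.5 and 119.9 for CaP Zn0.8Mn, and 104 and 115 for CaP Zn0.8Mn0.1Li, and Ube2c read 140.2 and 115 CPM for CaP Zn, 117 and 126 for CaP Zn0.8Mn, and 114 and 122 for CaP Zn0.8Mn0.1Li. Cdc20 had a single low library, CaP Zn0.8Mn replicate 1, and Ube2c had none that stood out. The kinases Plk1 and Aurka drive spindle building, and Ttk runs the spindle checkpoint. Plk1 read 48.9 and 31.3 CPM for CaP Zn, 36.9 and 32.4 for CaP Zn0.8Mn, and 27.7 and 35.0 for CaP Zn0.8Mn0.1Li. Aurka read 92.8 and 75.4 CPM for CaP Zn, 56.7 and 81.1 for CaP Zn0.8Mn, and 72.9 and 73.6 for CaP Zn0.8Mn0.1Li. Ttk read 35.9 and 26.5 CPM for CaP Zn, 51.4 and 31.8 for CaP Zn0.8Mn, and 28.9 and 33.9 for CaP Zn0.8Mn0.1Li. CaP Zn replicate 1 was the highest for Plk1 and Aurka, and CaP Zn0.8Mn replicate 1 the highest for Ttk. The chromosomal passenger complex corrects faulty attachments through the kinase Aurkb, with survivin (Birc5) and borealin (Cdca8). Aurkb read 107 and 89.3 CPM for CaP Zn, 56.4 and 84.8 for CaP Zn0.8Mn, and 80.6 and 101 for CaP Zn0.8Mn0.1Li, and Birc5 read 61.7 and 50.6 CPM for CaP Zn, 45.2 and 54.2 for CaP Zn0.8Mn, and 48.6 and 54.4 for CaP Zn0.8Mn0.1Li. All 3 subunits were below the mean of the other libraries in CaP Zn0.8Mn replicate 1 (median -0.70 log2 units).

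Kinetochores and spindles gave the widest spreads. Cenpf, a large kinetochore protein, read 84.1 and 63.6 CPM for CaP Zn, 245 and 58.3 for CaP Zn0.8Mn, and 59.9 and 74.0 for CaP Zn0.8Mn0.1Li. Cenpe, a kinetochore motor, read 87.9 and 72.0 CPM for CaP Zn, 168 and 89.0 for CaP Zn0.8Mn, and 85.4 and 90.8 for CaP Zn0.8Mn0.1Li. Kif11, the motor that pushes spindle poles apart, read 60.2 and 44.3 CPM for CaP Zn, 148 and 44.5 for CaP Zn0.8Mn, and 40.5 and 45.7 for CaP Zn0.8Mn0.1Li. Each had 1 value far above the rest, in CaP Zn0.8Mn replicate 1. Nusap1, which bundles spindle microtubules, read 52.1 and 32.9 CPM for CaP Zn, 101 and 32.8 for CaP Zn0.8Mn, and 24.6 and 31.1 for CaP Zn0.8Mn0.1Li. It combined that high library with the widest gap between the CaP Zn replicates, 1.58-fold. Prc1, which bundles the midzone where the cell will cleave, read 90.3 and 59.7 CPM for CaP Zn, 94.4 and 59.9 for CaP Zn0.8Mn, and 53.1 and 68.8 for CaP Zn0.8Mn0.1Li. All 5 cytokinesis genes were above the mean of the other libraries in CaP Zn0.8Mn replicate 1 (median 0.44 log2 units).

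**Figure D2:**
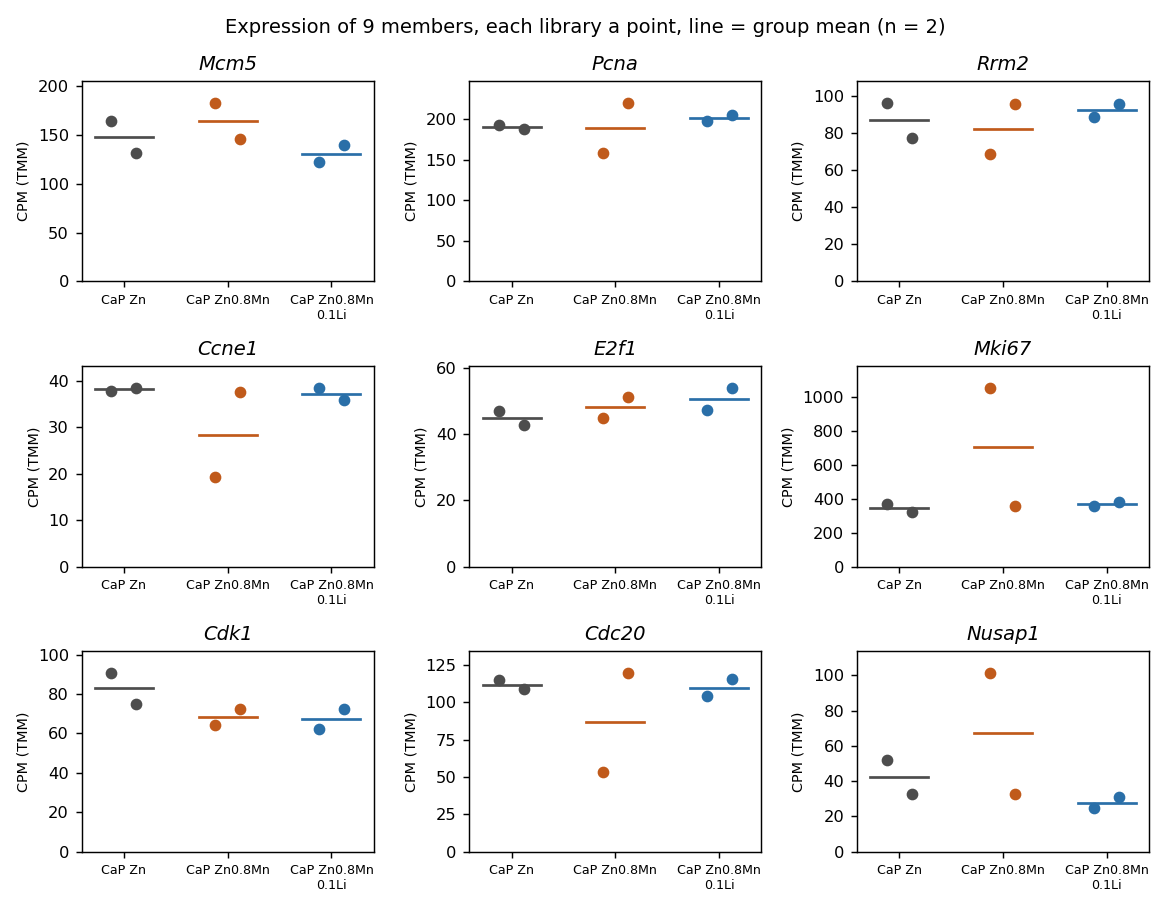
CPM (TMM-scaled, linear axis from 0) of 9 members, 1 point per library with replicate 1 on the left, and a line at the mean of 2 libraries. Mki67 and Nusap1 have their highest point, and Ccne1 and Cdc20 their lowest, in CaP Zn0.8Mn replicate 1.

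For CaP Zn0.8Mn over CaP Zn, which asks what manganese adds to zinc, the fitted log2 fold change was above 0 for 18 of 28 replication genes (median 0.19) and 17 of 31 mitosis genes (median 0.08), beside a median of 0.0048 over all genes tested. Cenpf (1.04, SE 0.64), Mki67 (1.03, SE 0.50) and Kif11 (0.88, SE 0.55) had the largest values among mitosis genes, and Pola1 (0.75, SE 0.43) among replication genes. Adjusted p-values of all members lay between 0.773 and 0.990 (edgeR quasi-likelihood test). Libraries did not overlap in 9 members: Cdc6, Rrm1, Tyms and Cenpe were higher on CaP Zn0.8Mn (4 of 59, where 12.5% of all genes did so) and Ccne1, E2f2, Cdk1, Aurkb and Cenpa were lower (5 of 59, where 12.8% did so). Both counts were below the background share. Without CaP Zn0.8Mn replicate 1, which leaves 1 library of that alloy, 12 members were higher and 10 lower, where 32% and 32.8% of all genes were. The fit given last, with CaP Zn replicate 1 also left out, sets 1 library against 1 and was added after seeing the data. CaP Zn replicate 1 did not stand apart across genes (r at least 0.985), but was the highest of 5 for 37 of 59 members. The reference left, CaP Zn replicate 2, was the lowest of 5 for 24 members. Higher values were thus favoured by the choice of library, and that fit's count cannot be read as a difference between alloys. Without CaP Zn0.8Mn replicate 1 the medians were 0.04 and -0.04 log2 units, and Cenpf (-0.34, SE 0.17), Mki67 (0.05, SE 0.12), Kif11 (-0.24, SE 0.16) and Pola1 (-0.06, SE 0.14) no longer led. In that fit 2 members, Rrm1 (0.25, SE 0.10) and Pcna (0.21, SE 0.10), had an unadjusted p under 0.05, beside 4.33% of all genes, and an adjusted p of 0.967 in edgeR's test. With CaP Zn replicate 1 left out as well, that count was 12, all higher (background 6.95%), among them Rrm1, Rrm2, Tyms, Pcna, E2f1, Gins1, Gins2, Cdc45 and Ccnb1, with a lowest adjusted p of 0.259 in edgeR's test, and the medians were 0.19 and 0.12.

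Lithium and manganese together, CaP Zn0.8Mn0.1Li over CaP Zn, gave the narrowest range of members' log2 fold changes with 6 libraries, from -0.61 to 0.17. The fitted log2 fold change was above 0 for 12 of 28 replication genes (median -0.0095) and 9 of 31 mitosis genes (median -0.09), with a median over all genes of 4.7e-05. Adjusted p was 1.00 for every member in edgeR's test. Nusap1 had the lowest value (-0.61, SE 0.56), and Plk1 (-0.36, SE 0.28), Cdk1 (-0.30, SE 0.20) and Prc1 (-0.30, SE 0.33) followed. At the other end were E2f1 and Prim1 (0.17, SE 0.22). Libraries did not overlap for Pcna and E2f1, higher on CaP Zn0.8Mn0.1Li (2 of 59, background 16.7%), and for Dtl, Cdk1, Aurka and Nusap1, lower (4 of 59, background 16.8%). With CaP Zn0.8Mn replicate 1 out of the fit, the 2 members with an unadjusted p under 0.05, among 5.02% of all genes, were Cdk1 (-0.30, SE 0.11, adjusted p 0.898 in edgeR's test) and Nusap1 (-0.62, SE 0.22, adjusted p 0.967). The direction of this comparison depended on single libraries. Without CaP Zn0.8Mn0.1Li replicate 1, 18 of 28 replication genes (median 0.04) and 14 of 31 mitosis genes (median -0.014) were above 0. Without CaP Zn replicate 1, 20 of 28 replication genes (median 0.10) and 23 of 31 mitosis genes (median 0.03) were above 0. Without both CaP Zn replicate 1 and CaP Zn0.8Mn replicate 1 the log2 fold changes were -0.24, SE 0.13 for Nusap1 and -0.16, SE 0.10 for Cdk1. The only CaP Zn library left was replicate 2, the lowest of 5 for 24 of 59 members. Higher values were again favoured by that choice, so the count below cannot be read as a difference between alloys. In that fit of 4 libraries, whose spread rests on the CaP Zn0.8Mn0.1Li pair, 9 members had an unadjusted p under 0.05, all higher (background 5.91%), with Tyms, Rrm2, E2f1 and Ccnb1 among them and a lowest adjusted p of 0.344 in edgeR's test.

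The comparison of CaP Zn0.8Mn0.1Li with CaP Zn0.8Mn asks what lithium adds. Here 17 of 28 replication genes (median -0.15) and 20 of 31 mitosis genes (median -0.21) had a log2 fold change below 0, beside a median over all genes of -0.0019. Nusap1 (-1.27, SE 0.56), Cenpf (-1.18, SE 0.65), Kif11 (-1.16, SE 0.56) and Mki67 (-0.95, SE 0.50) were the lowest mitosis genes. Among replication genes Pola1 (-0.76, SE 0.44) and Dtl (-0.66, SE 0.37) were the lowest. Adjusted p of members ran from 0.680 to 0.950 in edgeR's test. In 14 of 59 members both CaP Zn0.8Mn0.1Li libraries were below both CaP Zn0.8Mn libraries, among them Mcm2, Mcm5, Mcm10, Cdc6, Rrm1, Tyms, Top2a and Nusap1, where 17.5% of all genes did so. The opposite order held for E2f2 and Cdca3 (2 of 59, background 17.1%). With only CaP Zn0.8Mn replicate 2 left in that alloy, 26 members were lower and 4 higher, where 34.4% and 33.5% of all genes were. Without CaP Zn0.8Mn replicate 1 the medians shrank to -0.04 and -0.05, Rrm1 (-0.22, SE 0.10) alone had an unadjusted p under 0.05, beside 3.16% of all genes, and its adjusted p was 1.00 in edgeR's test. The 4-library fit gave 2 members under that limit, Mcm2 and Rrm1, both lower (background 6.11%). The 3 comparisons share libraries and are not independent of each other.

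**Figure D3:**
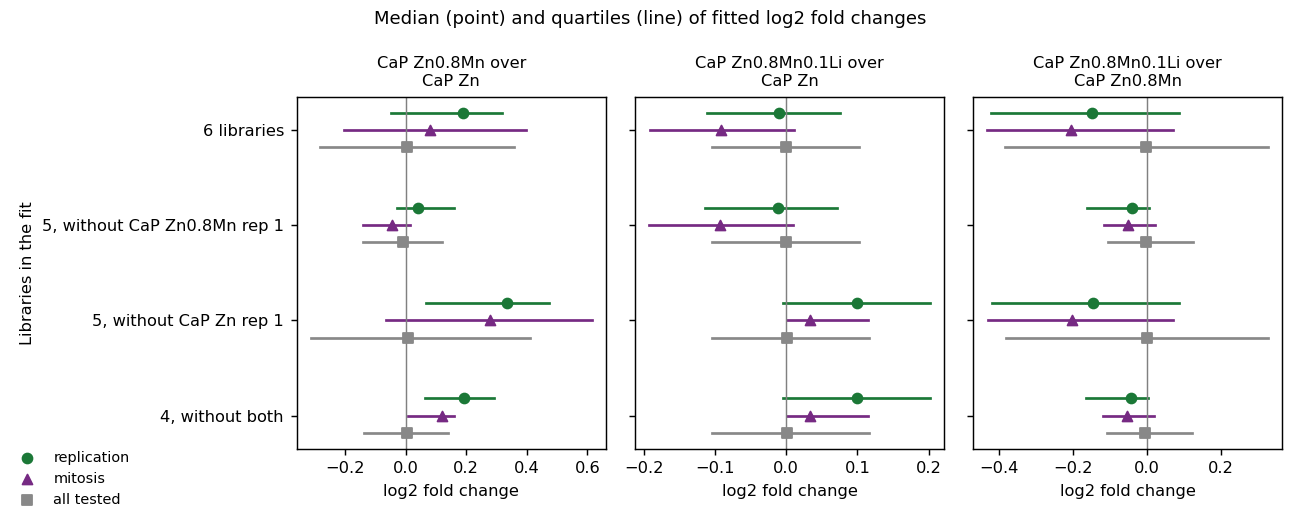
Median (symbol) and quartiles (line) of fitted log2 fold changes of replication genes, mitosis genes and all tested genes, in 3 alloy comparisons (panels, with separate axes) and 4 choices of libraries (rows). In the middle panel, CaP Zn0.8Mn0.1Li over CaP Zn, the medians of both member sets lie below 0 with 6 libraries and above 0 once CaP Zn rep 1 is left out.

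In CaP Zn0.8Mn replicate 1 the members went both ways, and the direction followed the length of their coding sequence. Against the mean log2 CPM of the other 5 libraries, 18 of 59 members were over 1.5-fold higher (30.5%, where 27.6% of all genes were) and 9 were over 1.5-fold lower (15.3%, where 28.2% were). It was the highest of the 6 libraries for 34 members (57.6%, where it was for 42% of all genes) and the lowest for 20 (33.9%, against 41.8%). The highest were Cenpf (1.86 log2 units, 8991 coding bases), Kif11 (1.67, 3156 bases), Nusap1 (1.59, 1281 bases), Mki67 (1.56, 9531 bases) and Pola1 (1.28, 4395 bases). At the low end stood Gins2 (-1.49, 555 bases), Fen1 (-1.11, 1140 bases), Cdca8 (-1.09, 978 bases), Cdc20 (-1.07, 1497 bases) and Cenpa, the centromeric histone (-1.02, 402 bases). For Nusap1, Gins2, Fen1 and Cdc20 an overlapping gene on the opposite strand had at least 10% as many counts, as described below. The part of such overlap in these values was not tested. Of the members with under 1000 coding bases, 1 of 10 was above the mean of the other libraries (median -0.46). That was 10 of 22 from 1000 to under 2000 bases (median -0.10), 15 of 17 from 2000 to under 3000 (median 0.44) and 9 of 10 from 3000 upwards (median 1.03). Medians over all genes in these length classes were -0.50, 0.065, 0.32 and 0.64.

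Spearman's rho between coding length and this deviation was 0.70 across the 59 members, 0.68 across the replication genes and 0.70 across the mitosis genes, all values coming from the same libraries. Across all 10968 tested genes with a coding length it was 0.42. In the other libraries, each set against the remaining ones of those 5, rho across the 59 members ran from -0.20 to 0.20. Within the sets it went further, to 0.42 in CaP Zn replicate 1 and -0.40 in CaP Zn0.8Mn replicate 2 across replication genes and to -0.34 in CaP Zn replicate 2 across mitosis genes. Some genes that work together parted by length in this library: the long Mcm10 was high and the short Gins2 low, the long Cenpf high and the short Cenpa low. The order did not hold for every member. Nusap1 and Ccne2 were short and high, though both overlap a counted gene on the opposite strand, as described below. Bub1b, Tpx2 and Uhrf1 had over 2000 coding bases and were below the other libraries. This same library had the high mitochondrial share given above, and the part of that share in these values was not tested. Without the other library of this alloy, CaP Zn0.8Mn replicate 2, edgeR's test called 38 of 59 members against CaP Zn (59.3% of all genes) and 42 of 59 against CaP Zn0.8Mn0.1Li (61.5% of all genes). In that fit the alloy is the 1 library that stands apart, assumed to vary like the other groups, so these calls describe that library and not the alloy.

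**Figure D4:**
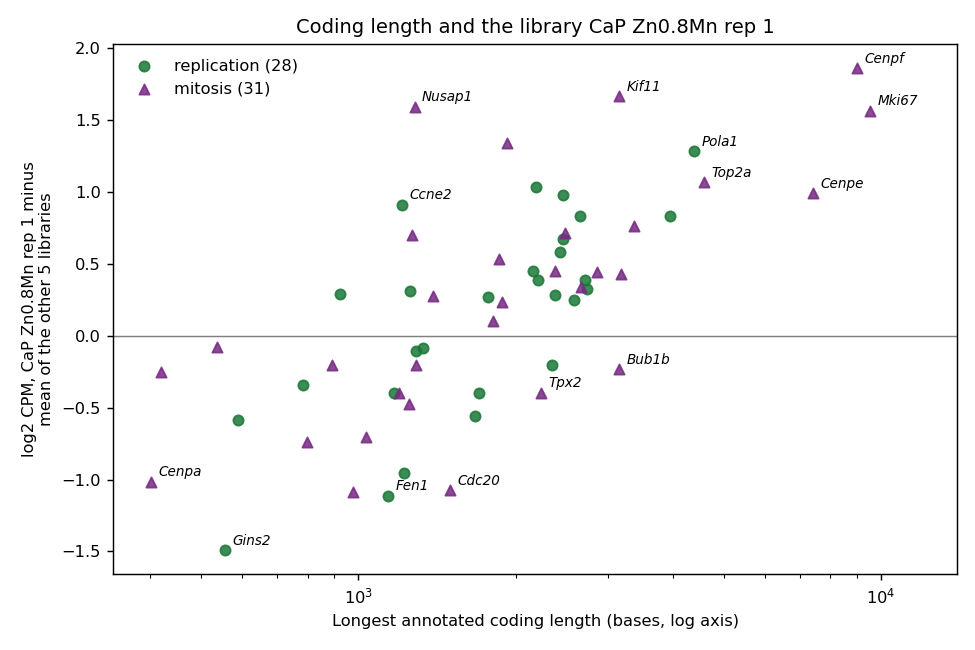
Log2 CPM of CaP Zn0.8Mn replicate 1 minus the mean of the other 5 libraries (vertical axis) against longest annotated coding length in bases (log axis) for 28 replication genes (circles) and 31 mitosis genes (triangles). Members from 3000 bases upwards lie above 0 in 9 of 10 cases, and those under 1000 bases below 0 in 9 of 10.

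The other 2 alloys showed a smaller but more even difference between their own libraries. CaP Zn replicate 1 was above replicate 2 in 54 of 59 members, 25 of 28 replication and 29 of 31 mitosis genes, where 49.9% of all genes were. The median difference was 0.26 log2 units for replication and 0.29 for mitosis genes, against -0.0010 for all genes. Nusap1 (1.58-fold), Plk1 (1.56-fold) and Prc1 (1.51-fold) differed most, and Cdt1 went the other way (0.934-fold). On CaP Zn0.8Mn0.1Li, replicate 2 was above replicate 1 in 55 of 59 members, where 50.7% of all genes were, with medians of 0.14 and 0.17 log2 units. Fen1 differed most, at 3.68 and 6.11 CPM. Among the 5 libraries without CaP Zn0.8Mn replicate 1, CaP Zn replicate 1 was the highest for 37 of 59 members (62.7%), 13 of 28 replication and 24 of 31 mitosis genes, where 25.4% of all genes had their highest value there. Scaled by library totals instead of TMM factors, that count was 53 of 59, where 43.3% of all genes were highest there. These directions within an alloy held under TMM, relative log expression and library totals. For CaP Zn the counts were 54, 54 and 58 of 59 members, where 49.9%, 48.3% and 65.9% of all genes went that way. For CaP Zn0.8Mn0.1Li they were 55, 55 and 57, where 50.7%, 49.6% and 59% of all genes did.

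**Figure D5:**
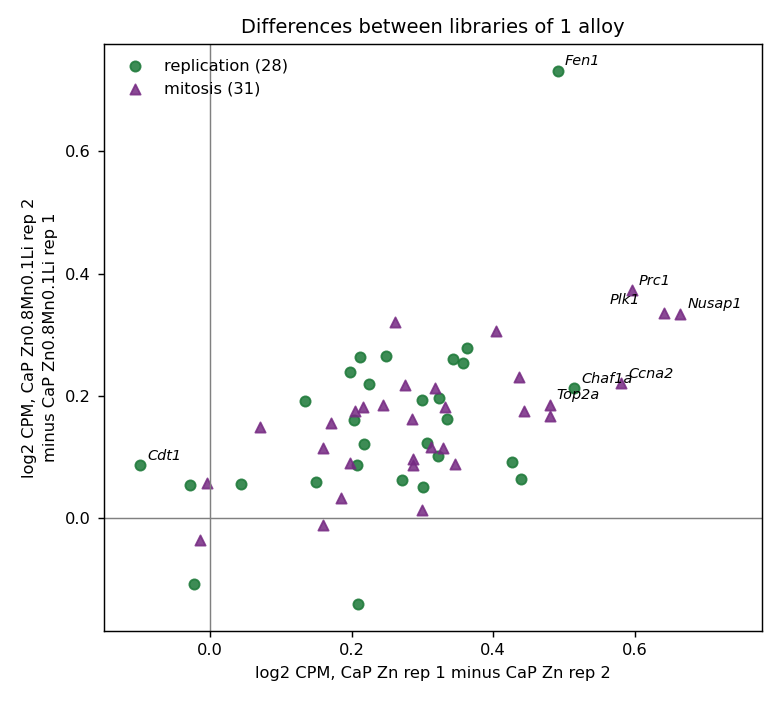
Log2 CPM of CaP Zn rep 1 minus rep 2 (horizontal) against CaP Zn0.8Mn0.1Li rep 2 minus rep 1 (vertical), for 28 replication genes (circles) and 31 mitosis genes (triangles). Most members lie above 0 on both axes, with Nusap1, Plk1 and Prc1 farthest to the right and Fen1 at the top.

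Replication and mitosis genes largely shared their order of libraries. Summed over members, replication genes held 2112 and 1834 CPM for CaP Zn, 2329 and 2081 for CaP Zn0.8Mn, and 1870 and 2040 for CaP Zn0.8Mn0.1Li. Mitosis genes held 3801 and 3136 CPM, 4774 and 3394 CPM, and 3138 and 3450 CPM in the same order. The ratio of the mitosis to the replication sum was 1.80 and 1.71 for CaP Zn, 2.05 and 1.63 for CaP Zn0.8Mn, and 1.68 and 1.69 for CaP Zn0.8Mn0.1Li. It was highest in CaP Zn0.8Mn replicate 1, then in CaP Zn replicate 1, and the remaining 4 libraries lay between 1.63 and 1.71. The top rank of CaP Zn0.8Mn replicate 1 depends on Mki67, whose value there, given above, was far above those in the other libraries. The median log2 fold change of mitosis genes was below that of replication genes in all 3 comparisons, by 0.11, 0.08 and 0.06 log2 units, and the pooled SD of that difference between libraries of an alloy was 0.048. Without CaP Zn0.8Mn replicate 1 these differences were -0.09, -0.08 and -0.0091, the last far under that SD, and without CaP Zn replicate 1 the first was -0.056. For CaP Zn0.8Mn over CaP Zn with 6 libraries the sums above went the other way, rising relatively more for mitosis than for replication genes. No test was made of the difference between the sets, since their genes are not replicates.

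Other genes of the pathway were taken from lists chosen by function. On a list of 39 further origin and fork genes, 0 were called in any comparison, and 33 were higher in CaP Zn replicate 1 than in the mean of the 4 libraries left after CaP Zn0.8Mn replicate 1 was set aside. That was 44 of 50 mitotic regulators, 8 of 9 checkpoint genes and 14 of 21 G1 cyclins, kinases and E2F/Rb genes, again with 0 called. Over all genes tested that share was 51.6%. Foxm1, a transcription factor for G2 genes, read 80.6 and 64.9 CPM for CaP Zn, 156 and 74.98 for CaP Zn0.8Mn, and 70.8 and 74.7 for CaP Zn0.8Mn0.1Li. Mybl2, the B-Myb subunit that binds MuvB, read 71.2 and 56.4 CPM for CaP Zn, 60.2 and 53.3 for CaP Zn0.8Mn, and 47.6 and 60.9 for CaP Zn0.8Mn0.1Li. Foxm1 was highest in CaP Zn0.8Mn replicate 1 and Mybl2 in CaP Zn replicate 1. E2f8, an atypical E2F that represses transcription, read 22.3 and 14.7 CPM for CaP Zn, 33.0 and 16.4 for CaP Zn0.8Mn, and 15.3 and 16.3 for CaP Zn0.8Mn0.1Li, with the same top 2 libraries. Of 16 inhibitor and arrest genes, 13 were tested, 0 were called, and 2 of 13 were higher in CaP Zn replicate 1. Cdkn1a, the p21 inhibitor of Cdk2 with 477 coding bases, read 657 and 777 CPM for CaP Zn, 176 and 751 for CaP Zn0.8Mn, and 771 and 753 for CaP Zn0.8Mn0.1Li. Rb1, the pocket protein that holds E2F back, read 53.9 and 51.9 CPM for CaP Zn, 111 and 46.9 for CaP Zn0.8Mn, and 49.99 and 47.9 for CaP Zn0.8Mn0.1Li. In CaP Zn0.8Mn replicate 1 the short Cdkn1a was lowest and the long Rb1 highest. Ccnd1, cyclin D1, read 247 and 235 CPM for CaP Zn, 317 and 258 for CaP Zn0.8Mn, and 229 and 259 for CaP Zn0.8Mn0.1Li, and its partner Cdk4 read 290.2 and 279 CPM for CaP Zn, 211 and 309 for CaP Zn0.8Mn, and 292 and 284 for CaP Zn0.8Mn0.1Li. Trp53 read 109 and 113 CPM for CaP Zn, 90.1 and 109 for CaP Zn0.8Mn, and 108 and 105 for CaP Zn0.8Mn0.1Li, and Cdkn1b, the p27 inhibitor, read 81.1 and 90.4 CPM for CaP Zn, 60.2 and 74.3 for CaP Zn0.8Mn, and 80.4 and 86.6 for CaP Zn0.8Mn0.1Li, both lowest in that library.

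The reads of some members cannot be assigned with certainty. The TruSeq RNA kit named in the labels does not mark strand, and 19 members overlap a gene on the opposite strand. For 11 members the overlapping gene had at least 10% as many counts as the member: Mcm7, Cdc45, Gins2, Ccne2, Fen1, Chaf1a, Ccna2, Cdc20, Kif20a, Nusap1 and Prc1. Relative to the member's own counts it had 1731% for Fen1 (Tmem258), 242% for Ccne2 (Ints8), 182% for Gins2 (Gse1) and 138% for Cdc45 (Ufd1). Pseudogenes carrying a member's name were in the table for 4 members, Pcna, Tyms, Ccnb1 and Ccnb2, and each held at most 1.30% of the member's counts. They were found by name alone, so pseudogenes under other names were not counted.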

How the data were processed

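Polyadenylated RNA of 6 RAW 264.7 libraries was sequenced, 2 for each of 3 alloys, with groups from the treatment labels and replicate numbers from the titles. The authors deposited whole-number read counts per gene without normalization, and a second table with FPKM, the counts divided by gene length and library size. No aligner, counting program or strand setting is stated in the labels. Build mm9 stands in the submitters' processing notes, but 98.33% of matched gene identifiers have GRCm38 positions, so gene coordinates were treated as GRCm38. The tables hold 0 columns of other samples.

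Counts were tested with edgeR 4.0.16 in R 4.3.3 (filterByExpr, TMM factors 0.973 to 1.05, robust quasi-likelihood fit of group means over 6 libraries, 3 residual degrees of freedom, two-sided, Benjamini-Hochberg over 13156 genes, threshold 0.05). SE is the absolute log2 fold change divided by the square root of F. A floor of 3 counts was 0.169 to 0.201 CPM, covering counting error only. FPKM was used to compare levels between genes. Coding lengths are the longest coding sequence per gene in GENCODE M 21. In simulated counts the fit was checked with known fold changes. Chi-square per gene between the libraries of an alloy was 11.3, 270 and 6.01, above sampling noise, so none was counted as a duplicate. Alternatives used relative log expression factors, library totals, DESeq2 1.42.0, limma-voom (limma 3.58.1), no filter, a mean count of at least 100, a replicate block, only the alloys compared, log2(FPKM + 1) and log2(FPKM + 0.1) with limma, the table without mitochondrial genes, and leaving out each library. DESeq2 and limma-voom on 5 libraries, a fit of 4 libraries, and counts of non-overlapping members without CaP Zn0.8Mn replicate 1 were added after seeing the data. The members and the gene lists were chosen with earlier results of these data known. Values by library were given for 24 members set by name, plus the 3 of largest change in each set, comparison and choice of libraries at a mean of at least 5 CPM. Others are named for their role or extreme value.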

Additional observations from a re-analysis of the deposited data

How the results depend on the processing

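Members called stayed at 0 in all 3 comparisons under every setting run, except without CaP Zn0.8Mn replicate 2. Leaving out each library in turn gave 0 to 38 members and 0 to 7808 genes called for CaP Zn0.8Mn over CaP Zn, 0 to 42 members and 0 to 8096 genes for CaP Zn0.8Mn0.1Li over CaP Zn0.8Mn, and 0 of both for CaP Zn0.8Mn0.1Li over CaP Zn. For the 3 comparisons in the order CaP Zn0.8Mn over CaP Zn, CaP Zn0.8Mn0.1Li over CaP Zn and CaP Zn0.8Mn0.1Li over CaP Zn0.8Mn, DESeq2 called 1, 0 and 3 genes, edgeR without a filter 1, 0 and 1, DESeq2 on 5 libraries 5, 12 and 3, limma-voom on 5 libraries 1, 0 and 2, and edgeR on 4 libraries 43, 47 and 40; the cause was not tested. With 4 libraries the lone CaP Zn and CaP Zn0.8Mn libraries are assumed to vary like the CaP Zn0.8Mn0.1Li pair.

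Medians moved most with single libraries. Leaving out 1 library took the replication median from 0.04 to 0.34 and the mitosis median from -0.077 to 0.28 for CaP Zn0.8Mn over CaP Zn, from -0.12 to 0.10 and from -0.24 to 0.03 for CaP Zn0.8Mn0.1Li over CaP Zn, and from -0.26 to -0.04 and from -0.36 to -0.05 for CaP Zn0.8Mn0.1Li over CaP Zn0.8Mn. The mitosis minus replication difference ran from -0.15 to -0.056, from -0.12 to -0.054 and from -0.10 to -0.0091, and for the last comparison was -0.0090 with DESeq2 on 5 libraries and -0.0091 on 4 libraries.

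Replicate numbers were checked for pairing: same-numbered libraries correlated in their deviations at 0.234, -0.131 and -0.0925. With 2 libraries per alloy, these values cannot show whether the numbers pair the libraries. With the replicate block, 0 genes and 0 members were called, and the replication and mitosis medians were 0.19 and 0.081, -0.0043 and -0.057, and -0.14 and -0.20.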
